A study of Mus musculus with 12 samples.

Results

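The genes described here are 10 members of the FGF, Nodal and BMP signalling pathways of the early embryo: Fgf4, Fgfr1, Fgfr2, Spry2, Spry4, Dusp6, Nodal, Tdgf1, Lefty1 and Bmp4. They were taken from a list of gene names, and every probe set annotated to exactly 1 of them was used, which gave 22 of the 45037 probe sets on the array. A probe set, the array's measuring unit, was tested where its mean signal over the 12 arrays was at least 100, and 17 of the 22 passed, with at least 1 for each of the 10 genes, among 27808 tested in all. Whole mouse blastocysts were measured on 12 expression arrays. Of these, 4 were of blastocysts cultured in Ca-free medium, 4 of blastocysts treated by 20 pulses and 4 of control blastocysts. By its title the study concerns the pattern of Ca2+ oscillations in fertilised eggs, and the comparisons ask how these genes stood in blastocysts once that pattern had been altered. The sources used here give no strain, no age of the embryos at collection, no number of embryos in a sample, no description of a pulse and no duration of the Ca-free culture. Since replicates are not stated to come from separate collections, p-values reflect only the spread among these 12 samples, which may be technical.

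In the mouse blastocyst, epiblast cells of the inner cell mass secrete FGF4, and neighbouring inner cells that answer through FGF receptors and the kinase ERK take the primitive endoderm fate, while trophectoderm next to the inner cells also depends on FGF. ERK signalling switches on its own inhibitors, among them the Sprouty proteins and the phosphatase DUSP6, so the RNA of these genes is widely used as a readout of the pathway. Nodal, a ligand of the TGF-beta family, signals through activin receptors with the co-receptor that Tdgf1 encodes, and is restrained by its target Lefty1. BMP4 belongs to the same family and is made by inner cells of the blastocyst.

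The arrays of the Ca-free group differed from the others as a whole, which bears on each change given here. Signals are linear intensities after scaling each array to the same 2% trimmed mean (500), and on that scale the median change of all tested probe sets, Ca-free minus control, was -0.18 on a log2 scale, against -0.03 for 20 pulses minus control. The signal ratio of the Gapdh 3' probe set to its 5' probe set, a measure of RNA length and labelling, was lower in the Ca-free group than in control (log2 difference -0.88), and an exact two-sided permutation test gave p = 0.0286, the smallest that 4 against 4 arrays allow. The ratio for Actb was not shown to differ in the same test (log2 difference -0.20, exact p = 0.429). After 20 pulses neither ratio was shown to differ from control (Gapdh -0.15, exact p = 0.429, and Actb -0.42, exact p = 0.0857). The mean of the 9 hybridization control probe sets was higher in the Ca-free group than in control (log2 difference 0.21, exact p = 0.0286). For 20 pulses minus control this difference was -0.16 (exact p = 0.0571). Per array, the highest of the 27 bacterial control probe sets without a target in the embryo gave a signal of 121 to 210, so that signals of this size are not distinguished from background here. It was 121 to 143 in the Ca-free group, 154 to 206 after 20 pulses and 170 to 210 in control, and changes of probe sets at or below it have no exact size. Of the lineage markers, Pou5f1 averaged 5952 ± 507 in Ca-free medium, 5042 ± 149 after 20 pulses and 5173 ± 440.4 in control (SD, n = 4 each), and the values for Nanog were 4900.0 ± 930.1, 4834 ± 380.4 and 4838 ± 536 in the same order. Cdx2, which marks trophectoderm, averaged 4981 ± 437 in Ca-free medium, 4787 ± 79.4 after 20 pulses and 4123 ± 571 in control. Gata6 and Gata4, which mark primitive endoderm, averaged 4751 ± 637 and 127 ± 22.1 in Ca-free medium, 4518 ± 199 and 173 ± 13.1 after 20 pulses, and 4558 ± 222 and 222 ± 31.99 in control. A list of 10 genes of oviduct and uterine epithelium summed to between 1921 and 1945 per array in Ca-free medium, 2357 and 2890.4 after 20 pulses and 2885 and 3159 in control, with Wfdc2 the brightest at 1087. The sums for 8 genes of cumulus and granulosa cells (7 on the array) were between 840.1 and 1014 in Ca-free medium, 1159 and 1666 after 20 pulses and 1533 and 1638 in control. Those for 8 fibroblast genes were between 882 and 1076, 1034 and 1303, and 1351 and 1472 in the same order, and those for 8 blood cell genes (7 on the array) between 959 and 1027, 1445 and 1576, and 1227 and 1530.4. Of these 4 lists, 9 of 10, 3 of 8, 5 of 8 and 4 of 8 genes passed the minimum signal of 100. In Ca-free medium against control, where 12.3% of all genes measured by their brightest probe set were called higher and 28.8% lower, 6 of 9 tested oviduct genes fell, 3 of 3 of the cumulus list, 3 of 5 of the fibroblast list and 1 of 4 of the blood list. Of these, Foxj1 and Pax8 had all 4 arrays of both groups at or below the highest bacterial control. Pgr and Col3a1 had all 4 Ca-free arrays there, with 1 and 3 controls, and Foxl2 had 2 Ca-free arrays. Ovgp1, Krt5, Wfdc2, Inha, Star, Col1a2, Dcn and Cd74 had no array there. The list sums hold such signals too, with median signals of 153 for the oviduct genes and 66.3 for the cumulus genes. In the same comparison 2 of 10 epiblast genes rose, 2 of 11 primitive endoderm genes fell, and of 13 trophectoderm genes 2 rose and 4 fell. The part of these array measures or of the marker lists in the results that follow was not tested.

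In blastocysts from Ca-free medium, 6 of the 17 tested probe sets were lower than in control and 2 were higher. The lower ones belonged to Fgf4, Fgfr1, Fgfr2 (2 probe sets), Dusp6 and Nodal, with log2 changes between -0.64 and -0.29, and the higher ones to Fgf4 (0.63) and Spry2 (0.79). Of all tested probe sets, 29.7% were called lower, 10.6% higher and 40.3% in either direction, so the members' counts were near the background. All 4 Ca-free arrays lay below all 4 controls for 4 of the 17 probe sets, against 27% of all tested, and above them for 1, against 9.23%. The median change of the 17 was -0.11, beside the -0.18 of all tested probe sets. Calls are from limma with Benjamini-Hochberg adjusted p under 0.05 over all 27808 probe sets, and log2 changes are on the log2(signal + 32) scale, which understates changes of dim probe sets. Because whole embryos were measured, fewer cells of a type and less RNA per cell cannot be told apart.

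**Figure D1:**
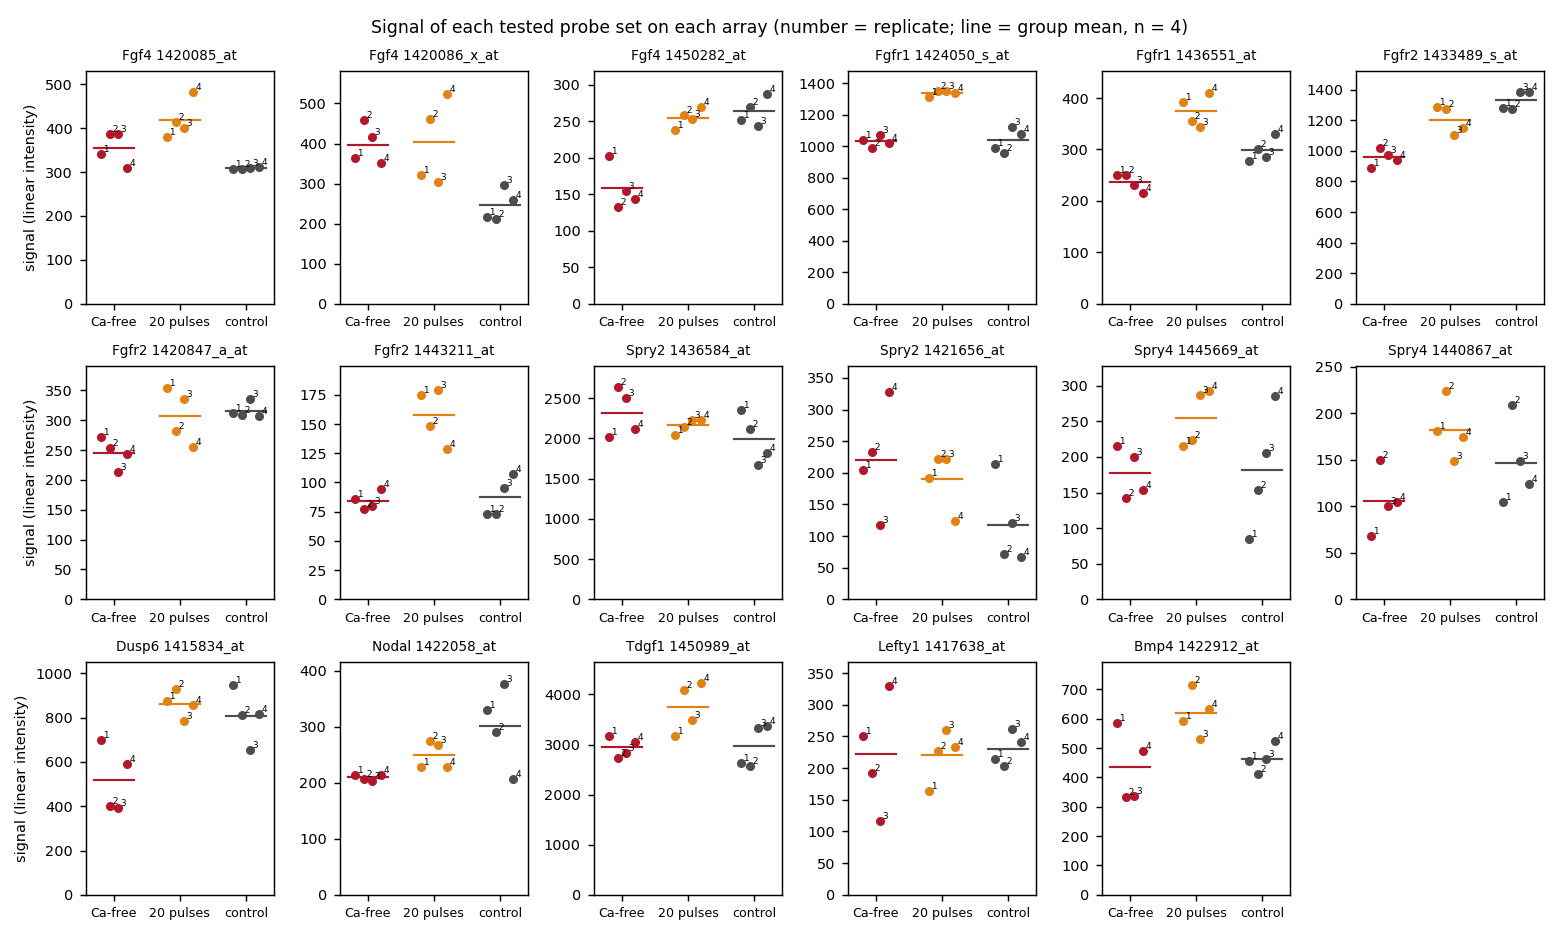
Signal on a linear intensity axis for each of the 17 tested probe sets, with a point for each array (its number is the replicate), in the order Ca-free medium, 20 pulses and control, and a line at each group's mean (n = 4). The Ca-free points of Dusp6 spread between 391 and 702, while those of Fgfr2 1433489_s_at lie together between 891 and 1021, below all controls.

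Fgf4, the ligand, was measured by 4 probe sets, of which 1 was called higher and 1 lower. Probe set 1420086_x_at gave signals of 363, 458, 416 and 350.4 on Ca-free arrays 1 to 4, against 216, 210.4, 296 and 259 on the controls. All Ca-free arrays were above all controls, and the change was 0.63 ± 0.16 (log2, SE; adjusted p = 0.00762). The ending x_at marks a set in which some probes also match other transcripts, so its signal may not be Fgf4 RNA alone. The call was lost when controls 3 and 4, or Ca-free arrays 1 and 4, stood alone for their group. Probe set 1450282_at went the other way, with 203, 133, 155 and 144 in Ca-free medium against 253, 270.2, 244 and 288 in control. Here all Ca-free arrays were below all controls, and the change was -0.64 ± 0.12 (adjusted p = 0.00157). Ca-free array 2 lay below its own highest bacterial control (143), and arrays 3 and 4 little above theirs (125 and 123), so the size of this change is uncertain. Probe set 1420085_at, designed from the same clone sequence as 1420086_x_at, read 339.9, 387, 386 and 309.8 in Ca-free medium against 307, 308, 309 and 312 in control. Its change of 0.18 (95% confidence interval -0.04 to 0.40) was not called. The fourth, 1449729_at, designed from that clone sequence too, stayed between 4.59 and 11.2 on all 12 arrays and was not tested. Only 1450282_at, the set that fell, was designed from a RefSeq mRNA. The direction of Fgf4 in Ca-free medium therefore differed between its probe sets. The mean of its 3 tested sets, which counts the clone sequence with both 1420085_at and 1420086_x_at, changed by 0.06 ± 0.10 (adjusted p = 0.674).

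The receptor Fgfr2, which mediates the FGF response of trophectoderm and primitive endoderm, was lower in Ca-free medium by 2 of its 3 tested probe sets. Probe set 1433489_s_at had signals of 891, 1021, 976 and 940.1 in Ca-free medium, against 1281, 1275, 1388 and 1387 in control. The groups did not overlap, and the change was -0.46 ± 0.08 (adjusted p = 0.000751), beside a median of -0.003 for all probe sets of similar signal. Probe set 1420847_a_at read 271, 254, 213 and 243 in Ca-free medium against 312, 309.5, 335 and 308 in control, again without overlap. Its change of -0.33 ± 0.11 (adjusted p = 0.033) stood beside a median of -0.34 for probe sets of similar signal, and the call was lost without Ca-free array 3 or 4 or control 1, 2 or 3. The third, 1443211_at, gave 85.8, 77.5, 79.9 and 94.2 in Ca-free medium against 73.4, 72.6, 95.6 and 107.5 in control, a change of -0.03 (95% interval -0.39 to 0.33) that was not called.

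Fgfr1, the receptor that epiblast cells also carry, was measured by 2 tested probe sets, of which 1 was called lower. Probe set 1424050_s_at read 1041, 989, 1072 and 1023 in Ca-free medium against 991, 957, 1122 and 1081 in control. The groups overlapped, and the change was -0.01 (95% interval -0.16 to 0.15). Probe set 1436551_at read 251, 251, 231 and 216 in Ca-free medium against 278, 301, 285 and 329 in control. Its groups did not overlap, and it changed by -0.29 ± 0.10 (adjusted p = 0.0306), where the median of probe sets of similar signal was -0.34, and the call was lost without Ca-free array 3 or 4 or control 2 or 4. A further set, 1425911_a_at, lay between 45.9 and 140.6 and was not tested.

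Among the feedback inhibitors, Dusp6, which encodes a phosphatase that inactivates ERK, fell in Ca-free medium. Its signals were 702, 399.9, 391 and 589.6 on Ca-free arrays 1 to 4, against 947, 811, 654 and 818 on the controls. Ca-free arrays 2 and 3 were the lowest of all, and Ca-free array 1 lay above control 3, so the groups overlapped. The change was -0.63 ± 0.16 (adjusted p = 0.00711), beside a median of -0.003 for probe sets of similar signal. It was no longer called when Ca-free arrays 1 and 4, or controls 3 and 4, stood alone for their group.

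The Sprouty genes, whose proteins restrain receptor tyrosine kinase signalling upstream of ERK, had no probe set called lower in Ca-free medium. The Spry2 probe set 1436584_at read 2022, 2635, 2501 and 2121 in Ca-free medium against 2355, 2115, 1672 and 1823 in control, and its change of 0.22 (95% interval -0.003 to 0.44) was not called. The second set, 1421656_at, read 204, 233, 118 and 328 in Ca-free medium against 213, 71.4, 121 and 66.2 in control. Control 1 lay above Ca-free arrays 1 and 3, and the called change of 0.79 ± 0.30 (adjusted p = 0.0463) was lost on leaving out any of 6 arrays (Ca-free 1, 2 or 4, or control 2, 3 or 4). The signals of 1 Ca-free array and 3 controls were at or below the highest bacterial control of their array. Spry4 had 2 tested probe sets: 1445669_at read 215, 142, 200.5 and 153 in Ca-free medium against 84.0, 153, 206 and 285 in control, a change of 0.05 (95% interval -0.47 to 0.56). The other, 1440867_at, read 68.3, 150.1, 100.3 and 104 in Ca-free medium against 104, 208, 148 and 124 in control, a change of -0.37 (95% interval -0.82 to 0.07). Neither was called, and many of these signals lie at or below the highest of the bacterial controls. The untested Spry4 sets 1422021_at and 1422020_at lay between 64.2 and 142.6 and between 12.6 and 24.3.

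Nodal was measured by a single tested probe set, 1422058_at, with signals of 215, 208, 203 and 214 in Ca-free medium, against 330.1, 291, 377 and 207 in control. The Ca-free arrays lay close together, above their highest bacterial controls (121 to 143), while control 4 lay below 3 of them, so the groups overlapped. The change was -0.44 ± 0.14 (adjusted p = 0.027), where probe sets of similar signal had a median of -0.34, and it was lost without Ca-free array 2 or 3 or without control 1 or 3. The second Nodal set, 1422057_at, stayed between 7.995 and 27.0 and was not tested. Tdgf1, the co-receptor, read 3165, 2737, 2832 and 3052 in Ca-free medium against 2623, 2569.6, 3322 and 3367 in control. Its change was -0.002 (95% interval -0.23 to 0.22). Lefty1, the inhibitor, read 250.5, 192, 117 and 330.05 in Ca-free medium against 215, 204, 262 and 241 in control, a change of -0.11 with a wide interval (95%, -0.57 to 0.35). Bmp4 read 587, 334, 336 and 489 in Ca-free medium against 456, 413, 461 and 525 in control, a change of -0.12 (95% interval -0.45 to 0.22). None of these 3 genes was called.

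The promoters of the 4 genes with a called decrease for which RefSeq sequence was at hand are printed here, because each had a probe set called lower in Ca-free medium (for Fgf4, 1 of its 3 tested). Promoters of 7 of the 10 members were matched in the RefSeq table (build GRCm38.p6), which spans 250 bases before to 50 after the annotated start of each gene. Fgf4 lies on the plus strand at chr7:144861136-144861435, Fgfr2 on the minus strand at chr7:130266759-130267058, Dusp6 on the plus strand at chr10:99262981-99263280 and Nodal on the plus strand at chr10:61417722-61418021. Each is read 5' to 3' along its gene, and capitals mark every match of 6 motifs searched on both strands:
Fgf4: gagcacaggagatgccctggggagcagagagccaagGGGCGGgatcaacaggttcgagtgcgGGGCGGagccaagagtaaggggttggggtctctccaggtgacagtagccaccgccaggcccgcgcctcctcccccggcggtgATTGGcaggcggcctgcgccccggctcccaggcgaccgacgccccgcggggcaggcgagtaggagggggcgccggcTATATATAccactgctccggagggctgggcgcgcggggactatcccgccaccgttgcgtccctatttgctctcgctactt
Fgfr2: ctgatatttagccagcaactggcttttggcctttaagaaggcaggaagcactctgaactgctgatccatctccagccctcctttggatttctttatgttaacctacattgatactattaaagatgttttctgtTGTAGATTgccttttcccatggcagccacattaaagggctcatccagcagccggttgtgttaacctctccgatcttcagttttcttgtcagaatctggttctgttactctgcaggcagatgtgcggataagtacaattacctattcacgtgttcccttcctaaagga
Dusp6: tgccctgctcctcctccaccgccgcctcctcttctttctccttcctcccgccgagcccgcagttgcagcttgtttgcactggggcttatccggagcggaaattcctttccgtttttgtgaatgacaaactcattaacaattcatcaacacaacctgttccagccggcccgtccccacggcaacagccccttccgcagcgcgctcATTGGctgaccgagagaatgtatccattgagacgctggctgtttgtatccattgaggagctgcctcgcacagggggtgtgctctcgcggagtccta
Nodal: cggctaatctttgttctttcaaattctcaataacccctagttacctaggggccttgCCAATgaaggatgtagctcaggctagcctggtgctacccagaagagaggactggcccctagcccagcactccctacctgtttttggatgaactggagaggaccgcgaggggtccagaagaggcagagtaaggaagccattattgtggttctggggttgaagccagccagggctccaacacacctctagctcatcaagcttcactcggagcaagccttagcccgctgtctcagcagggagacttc

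The 6 motifs were the CCAAT box (CCAAT), the GC box (GGGCGG), the TATA element (TATANA), the core of ETS factors, which ERK can phosphorylate (CCGGAA), the element of the Nodal effector FOXH1 (TGTNNATT) and the core of the Ca2+-regulated NFAT factors (TGGAAA). Of 32851 promoters of this length in the table, 37.4% held the first, 35.7% the second, 24.7% the third, 14.9% CCGGAA, 12.2% the FOXH1 element and 21.4% TGGAAA. Fgf4 held GC boxes that begin at -214 and -188 from the start site, a CCAAT box on the opposite strand at -106, and overlapping TATA elements at -30 and -28 that match on both strands. Dusp6 held a CCAAT box on the opposite strand at -46 and Nodal a CCAAT box at -194. Fgfr2 held a match to the FOXH1 element at -117. None of the 4 held CCGGAA or TGGAAA, which says only that these letters are not in this window. Shorter forms of the ETS and NFAT sites were not searched and may be present. Each match is a description of the sequence.

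Of the 8 calls in Ca-free medium against control, 1 was made under all 4 scalings of the arrays that were compared. The median change of all tested probe sets against control was -0.18 with the trimmed mean, -0.02 after quantile normalization, 0.19 after scaling to each array's median and -0.36 after scaling to the hybridization controls. The numbers called higher and lower were 2944 and 8249, 2723 and 2774, 10232 and 1538, and 772 and 13655 under these scalings. The increase of Fgf4 1420086_x_at was the 1 member call against control that all 4 kept in Ca-free medium, with changes between 0.44 and 1.01. Relative to the median of all tested probe sets, it was higher by 0.80 to 0.88. The decreases of Dusp6 and Fgfr2 1433489_s_at were called under 3 scalings and not under median scaling, where they changed by -0.24 and -0.06. Relative to the median of all tested probe sets they stood at -0.53 to -0.44 and at -0.47 to -0.26. The decreases of Fgf4 1450282_at, Fgfr1 1436551_at, Fgfr2 1420847_a_at and Nodal were not called after quantile normalization or median scaling. Against the same median, Nodal stood at -0.26 to -0.11 and Fgfr1 1436551_at at -0.12 to 0.03, changing sign. Spry2 1421656_at, higher by 0.94 to 1.11 relative to that median, was not called under hybridization control scaling.

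**Figure D2:**
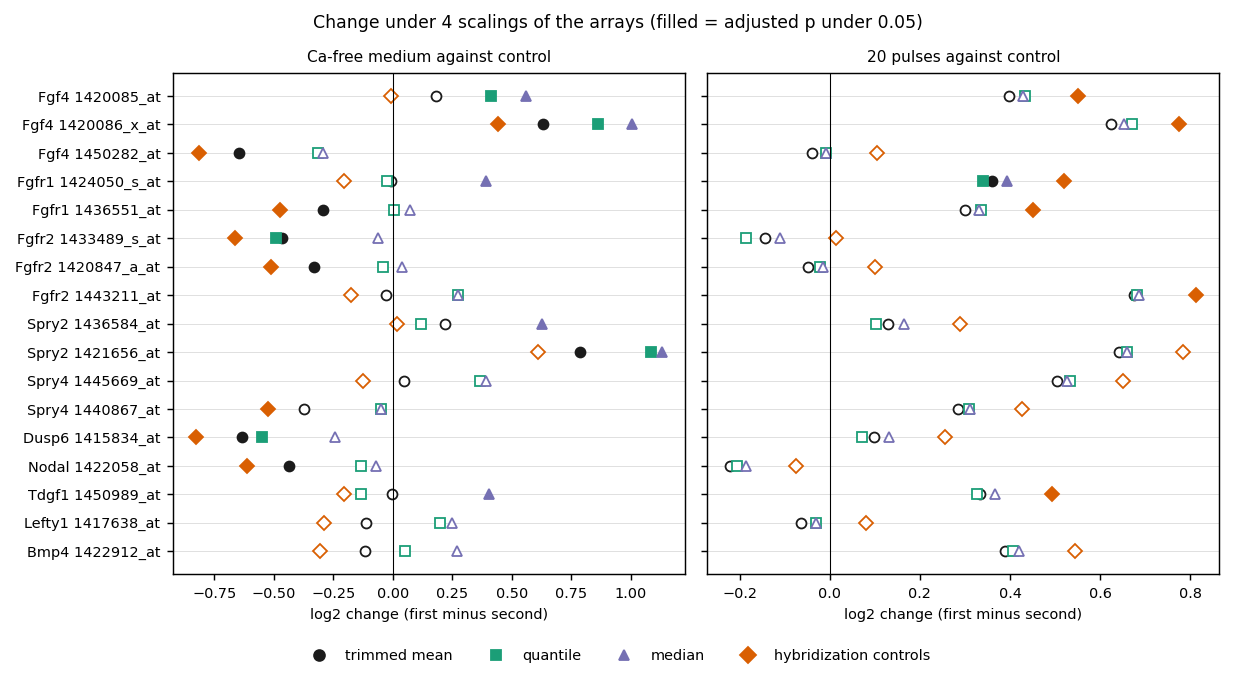
Log2 change of each tested probe set (horizontal axis) under 4 scalings of the arrays, in the comparisons of Ca-free medium and of 20 pulses with control. Filled symbols have adjusted p under 0.05. Fgf4 1420086_x_at stays filled in Ca-free medium and Fgfr1 1424050_s_at after 20 pulses, while Dusp6 ranges from -0.83 to -0.24 in Ca-free medium.

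After 20 pulses, Fgfr1 was the 1 member gene called against control, and it was higher. Probe set 1424050_s_at read 1312, 1351, 1349.85 and 1342 on pulse arrays 1 to 4, against 991, 957, 1122 and 1081 on the controls. The pulse arrays lay within a narrow range above all controls, and the change was 0.36 ± 0.07 (adjusted p = 0.025). Of the 17 probe sets, 1 was called higher and 0 lower by limma, where 1.1% of all tested probe sets were called higher, 0.374% lower and 1.48% in either direction. At unadjusted p under 0.05 the counts were 8 higher and 0 lower, against 8.15% and 7.64% of all tested probe sets. The call was made under all 4 scalings, whose numbers of all probe sets called higher and lower were 307 and 104 with the trimmed mean, 369 and 132 with quantile normalization, 308 and 43 with median scaling and 2120 and 36 with hybridization controls. It was not made without the intensity trend, where Fgfr2 1443211_at was called instead, nor against controls 3 and 4 alone, nor on leaving out pulse array 2, 3 or 4 or control 2. Probe set 1436551_at of the same gene read 391, 354, 344 and 410.1 after 20 pulses against 278, 301, 285 and 329 in control, all pulse arrays above all controls, with an uncalled change of 0.30 (95% interval 0.09 to 0.52).

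Of the cell type lists, the primitive endoderm markers held the 1 gene called after 20 pulses. Of 11 tested, 1 was called higher and 0 lower by limma, and 4 were higher and 2 lower at unadjusted p under 0.05, against 6.82% and 8.49% of all genes. The 4 higher and 2 lower ones are named here after their values were seen. Sox17, a transcription factor of the primitive endoderm, averaged 1289 ± 38.8 after 20 pulses and 629.9 ± 72.2 in control, and rose by 1.00 (adjusted p = 0.0269) by 1 of its 2 tested probe sets, an x_at set. Pdgfra and Lamb1 changed by 0.51 and 0.37 without being called. Lama1 was higher without being called, with 2 pulse arrays and all 4 controls at or below the highest bacterial control. No size is given for it. The 2 lower ones, Gata4 and Dab2, changed by -0.31 and -0.13, and Gata6 by -0.01. In the other 6 cell type lists 0 genes were called in this comparison. At unadjusted p under 0.05, 2 of 13 trophectoderm genes were higher and 3 lower, 1 of 10 epiblast genes, 1 of 3 cumulus genes and 3 of 5 fibroblast genes were lower, and 0 of the oviduct and blood lists were past it. The part of the primitive endoderm genes in the Fgfr1 result was not tested.

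The pulse arrays lay above all controls for 6 of the 17 probe sets, against 5.85% of all tested, and below all controls for 0, against 5.11%. Besides those of Fgfr1, these were 2 of Fgf4, 1 of Fgfr2 and that of Bmp4, and none of the 4 was called. Fgf4 1420085_at read 380.2, 413, 399 and 483 after 20 pulses against 307, 308, 309 and 312 in control, a change of 0.40 (95% interval 0.18 to 0.61; adjusted p = 0.0669). Fgf4 1420086_x_at read 321, 461, 305 and 523 after 20 pulses against 216, 210.4, 296 and 259 in control, a change of 0.63 (95% interval 0.28 to 0.97; adjusted p = 0.0687). The remaining tested set, 1450282_at, read 239, 259, 254 and 269.8 after 20 pulses against 253, 270.2, 244 and 288 in control, and its change of -0.04 (95% interval -0.30 to 0.22) lay on the other side of 0. Fgfr2 1443211_at read 175, 148, 179 and 129 after 20 pulses against 73.4, 72.6, 95.6 and 107.5 in control, a change of 0.67 (95% interval 0.32 to 1.03; adjusted p = 0.062) at signals in the range of the highest bacterial controls. Bmp4 read 593, 716, 532 and 633 after 20 pulses against 456, 413, 461 and 525 in control, a change of 0.39 (95% interval 0.06 to 0.72; adjusted p = 0.234).

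The other members overlapped between 20 pulses and control. Dusp6 read 876, 928, 783 and 856 after 20 pulses against 947, 811, 654 and 818 in control, a change of 0.10 (95% interval -0.24 to 0.44). Tdgf1 read 3170.4, 4095, 3483 and 4227 after 20 pulses against 2623, 2569.6, 3322 and 3367 in control, with pulse array 1 below controls 3 and 4 and a change of 0.33 (95% interval 0.11 to 0.56; adjusted p = 0.134). Nodal read 228, 275, 267 and 228 after 20 pulses against 330.1, 291, 377 and 207 in control, a change of -0.22 (95% interval -0.53 to 0.09). The pulse arrays of Nodal lay between control 4 and the 3 higher controls. Lefty1 read 164, 227, 259.8 and 234 after 20 pulses against 215, 204, 262 and 241 in control, a change of -0.06 (95% interval -0.52 to 0.40). The other Fgfr2 sets changed by -0.14 and -0.05, those of Spry2 by 0.13 and 0.64 and those of Spry4 by 0.50 and 0.29, and none was called.

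**Figure D3:**
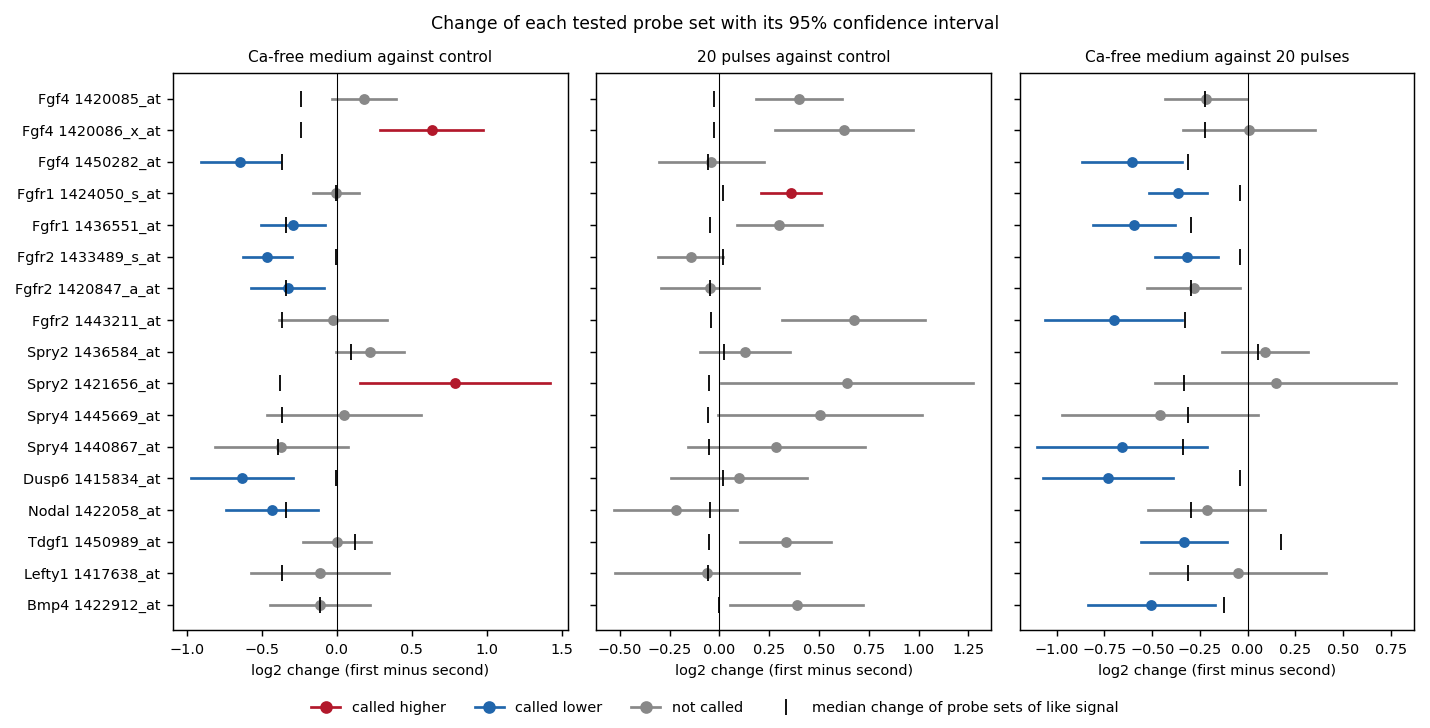
Log2 change of each of the 17 tested probe sets (horizontal axis) with its 95% confidence interval, in the 3 comparisons, first-named group minus the second. Colour sets calls (adjusted p under 0.05 in limma) apart from the other changes. In Ca-free medium against control the called decreases run from -0.64 to -0.29, and after 20 pulses only Fgfr1 1424050_s_at at 0.36 is called against control.

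Set against 20 pulses directly, blastocysts from Ca-free medium had 9 of the 17 probe sets called lower, from 7 of the 10 genes, and 0 higher by limma. Of all tested probe sets, 23.4% were called lower, 9.22% higher and 32.6% in either direction, and at unadjusted p under 0.05 the members' counts were 11 lower and 0 higher, against 32.5% and 12.4% of all tested. All Ca-free arrays lay below all pulse arrays for 9 probe sets, against 22.2% of all tested, and above them for 0, against 9.29%. The median change of the members was -0.33, beside -0.17 for all tested probe sets. Dusp6 had the largest called change, -0.73 ± 0.16 (adjusted p = 0.00504), and its Ca-free signals of 702, 399.9, 391 and 589.6 lay below all pulse signals of 876, 928, 783 and 856. Both Fgfr1 probe sets fell without overlap, with changes of -0.37 ± 0.07 for 1424050_s_at (adjusted p = 0.00293) and -0.60 ± 0.10 for 1436551_at (adjusted p = 0.00149). Fgfr2 1433489_s_at fell by 0.32 ± 0.08 on the log2 scale, again without overlap. Fgfr2 1443211_at was called lower too (adjusted p = 0.00763), but its 4 Ca-free signals and 2 of the pulse signals were at or below the highest bacterial control of their array. Its means were 84.3 in Ca-free medium and 158 after 20 pulses. With signals of both groups at that level, no size or minimum of the decrease is given. The third Fgfr2 set, 1420847_a_at, changed by -0.28 and was not called (adjusted p = 0.0699).

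Tdgf1, at 3165, 2737, 2832 and 3052 in Ca-free medium against 3170.4, 4095, 3483 and 4227 after 20 pulses, fell (change -0.33 ± 0.11, adjusted p = 0.0271), with Ca-free array 1 only just below pulse array 1. Bmp4 fell (change -0.50 ± 0.16, adjusted p = 0.0244), although Ca-free array 1 at 587 lay above pulse array 3 at 532. Fgf4 1450282_at (-0.60 ± 0.12, adjusted p = 0.0036) and Spry4 1440867_at (-0.66 ± 0.21, adjusted p = 0.0268) were the other called decreases. For these, 1 Ca-free signal of Fgf4, and 3 Ca-free signals and 1 pulse signal of Spry4, were at or below the highest bacterial control. Nodal, at 215, 208, 203 and 214 in Ca-free medium against 228, 275, 267 and 228 after 20 pulses, did not overlap between the groups, but its change of -0.21 (95% interval -0.52 to 0.09) was not called. Both comparisons with Ca-free medium use the same 4 Ca-free arrays, and both comparisons with control the same 4 controls. None of these 9 decreases was called under median scaling, and those of Fgf4, Fgfr1 1436551_at, Fgfr2 1443211_at, Spry4 and Bmp4 were not called after quantile normalization either. The numbers of all probe sets called higher and lower were 2565 and 6505 with the trimmed mean, 1405 and 1384 with quantile normalization, 8748 and 989 with median scaling and 94 and 19709 with hybridization controls. The call was lost for Tdgf1 without Ca-free array 2 or 3 or pulse array 2 or 4. It was lost for Bmp4 without Ca-free array 2 or 3 or pulse array 2, and for Spry4 without Ca-free array 1 or pulse array 1 or 2. With Ca-free arrays 1 and 4 only, Tdgf1 (-0.26) and Bmp4 (-0.19) were not called. Tdgf1 was not called without the intensity trend either. With Ca-free arrays 2 and 3 only, Fgfr2 1433489_s_at (-0.26) and Spry4 1440867_at (-0.45) were not called.

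Marker genes and array measures also differed between Ca-free medium and 20 pulses, where 11.2% of all genes were called higher and 21% lower. Of 11 primitive endoderm genes, 4 fell and 1 rose in Ca-free medium. Sox17, again named after its values were seen, averaged 659 ± 266 in Ca-free medium against 1289 ± 38.8 after 20 pulses, a change of -1.02 (adjusted p = 0.0032). Lamb1 and Sparc fell too, with changes of -0.46 and -0.40. Lama1 was also called lower, but all 4 Ca-free arrays and 2 pulse arrays were at or below the highest bacterial control, so no size is given. The gene that rose was Dab2, the brightest of the list (0.22, adjusted p = 0.0115). The oviduct list had 5 of 9 genes lower, the blood list 4 of 4, the cumulus list 2 of 3 and the fibroblast list 2 of 5, and in these lists 0 were called or past unadjusted p under 0.05 in the other direction. Of the lower ones, Pgr and Pax8 had all 4 Ca-free arrays at or below the highest bacterial control, with 2 and 3 pulse arrays. Lyz2 and Hba-a1 had 2 Ca-free arrays there and Dcn 1 pulse array. Of 10 epiblast genes 3 rose, and of 13 trophectoderm genes 3 rose and 4 fell. The Gapdh 3' to 5' ratio was lower in Ca-free medium (log2 difference -0.73, exact p = 0.0286) and the Actb ratio higher (0.22, exact p = 0.0286). By the same permutation test the hybridization controls were higher in Ca-free medium (log2 difference 0.37, exact p = 0.0286). The part of these in the members' decreases was not tested.

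Within the Ca-free group the arrays fell into pairs. Arrays 1 and 4 were both above arrays 2 and 3 for Dusp6 (702 and 589.6 against 399.9 and 391), Bmp4 (587 and 489 against 334 and 336) and Lefty1 (250.5 and 330.05 against 192 and 117). Tdgf1, Nodal and Fgfr2 1443211_at ran in the same direction, while Fgf4 1420085_at and 1420086_x_at, Fgfr2 1433489_s_at and Spry2 1436584_at were lower on arrays 1 and 4, so that 10 of 17 probe sets were apart, against 50.9% of all tested. Controls 1 and 2 stood apart from controls 3 and 4 for 10 of the 17, against 49.6% of all tested, as in Tdgf1 (2623 and 2569.6 against 3322 and 3367). This division of the 4 arrays was chosen with the values known, and a batch behind it is not named by the labels.

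The other genes of the pathways were read from 6 lists, taking for each gene the tested probe set of highest mean signal, over 13599 genes. The RAS to ERK list had 17 names, of which 10 were used. For Ca-free medium against control, 12.3% of all genes were called higher and 28.8% lower, and the median change was -0.13. Over the 6 lists, 7 of 83 tested genes rose and 23 fell, near these shares. Of 12 tested FGF ligands, receptors and adaptors, 2 rose and 4 fell, with a median of -0.22. Fgf1, another FGF ligand, averaged 195 ± 18.8 in Ca-free medium, against 349 ± 46.0 in control (SD, n = 4 each), a change of -0.74 (adjusted p = 0.000543). Fgfr4, a further receptor, changed by -0.47 and the docking protein gene Frs3 by -0.53, while the adaptor Grb2 rose by 0.24 and the phosphatase Ptpn11 by 0.25. Another tested probe set of Grb2 was called in the opposite direction.

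Of 14 genes of heparan sulfate, the sugar chain that FGFs need to bind their receptors, 2 rose and 3 fell (median -0.10). The sulfotransferase Ndst2 averaged 160 ± 10.9 in Ca-free medium and 308 ± 47.9 in control, a change of -0.81 (adjusted p = 0.00134). The core protein Sdc2 changed by -0.84 and the transferase Extl3 by -0.31, while the core protein Sdc4 rose by 0.49 and the sulfotransferase Hs2st1 by 0.28. A second probe set of Hs2st1 was called the other way. Of 10 tested genes of the RAS to ERK cascade, 1 rose and 4 fell (median 0.09). Pebp1, an inhibitor of RAF kinases, rose by 0.45 (adjusted p = 0.00121), at 7993 ± 961 in Ca-free medium and 5822 ± 562 in control. The scaffold Ksr1 was called lower (adjusted p = 0.00479), at 93.7 in Ca-free medium against 175 in control. All 4 Ca-free arrays and 2 controls were at or below their highest bacterial control, so no size or minimum of the decrease is given. The kinase Braf changed by -0.66 and the RAS inhibitor Nf1 by -0.52. Of 14 ERK targets and feedback genes, 3 fell and 0 rose by limma, with 1 higher at unadjusted p under 0.05 (median -0.24). Ccnd1, a cyclin of the G1 phase, changed by -0.65 (adjusted p = 0.000934), Il17rd, an FGF antagonist, by -0.56 and Spry1 by -0.35.

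Of 19 tested genes of the Nodal and activin pathway, 1 rose and 5 fell in Ca-free medium (median -0.04). Inhba, the activin A subunit, averaged 104 ± 37.4 in Ca-free medium and 299.97 ± 54.9 in control, and was called lower (fitted change -1.31, adjusted p = 0.000638). The receptor Acvr1c averaged 119 ± 23.9 in Ca-free medium and 287 ± 54.7 in control, and was also called lower (fitted change -1.08, adjusted p = 0.000581). Of the 4 Ca-free arrays, 3 for Inhba and 2 for Acvr1c lay at or below their highest bacterial control, so neither size is exact. Foxh1, a transcription factor that acts with SMADs, changed by -0.66. Skil, which encodes a repressor of SMAD-driven transcription, rose by 0.74 (adjusted p = 0.000684), at 2033 ± 249.7 in Ca-free medium and 1209.7 ± 194 in control. Of 14 genes of the BMP pathway, 1 rose and 4 fell (median -0.12). The receptor Bmpr1a rose by 0.40, and of its 4 other tested probe sets 1 was called higher too and 1 lower. Smad5, a BMP effector, changed by -0.52, the target Id1 by -0.53 and the antagonist Grem1 by -0.51. Of the genes named from the lists, Fgf1, Ndst2, Pebp1, Ccnd1, Skil, Acvr1c and Inhba were called in the same direction under all 4 scalings. Fgf1 and Pebp1 (an x_at set) had 1 other tested probe set each and Ccnd1 had 2, and none of these was called. The other tested probe sets of Ptpn11, Sdc4, Ksr1, Foxh1 and Smad5 were not called either. Grb2, Ptpn11, Sdc4 and Hs2st1 were not called under quantile normalization or hybridization control scaling, Bmpr1a under the second of these, and the other named decreases under median scaling. Of these, Sdc2, Ksr1, Nf1, Il17rd, Smad5, Id1 and Grem1 were not called under quantile normalization either. Hs2st1 lost its call in 6 of the 8 fits that left out an array, and Grem1 in 5. Under median scaling Extl3 and Spry1 changed sign (0.082 and 0.044).

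After 20 pulses, 0.75% of all genes were called higher and 0.331% lower against control, and of the 6 lists only Skil was called by limma, 1 of 83 genes higher and 0 lower, with 9 higher and 7 lower at unadjusted p under 0.05, where the shares of all genes were 6.82% and 8.49%. It rose by 0.72 (adjusted p = 0.0105), at 2002 ± 238 after 20 pulses and 1209.7 ± 194 in control, and was called under all 4 scalings but not against controls 1 and 2 alone. Between Ca-free medium and 20 pulses, 11.2% of all genes were called higher and 21% lower, with a median of -0.12. Of the FGF ligands, receptors and adaptors 2 rose and 3 fell in Ca-free medium relative to 20 pulses. The counts were 1 and 2 for heparan sulfate, 2 and 2 for the RAS to ERK cascade, 0 and 3 for ERK targets (2 and 3 at unadjusted p under 0.05), 2 and 3 for the Nodal and activin pathway, and 1 and 1 for the BMP pathway.

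**Figure D4:**
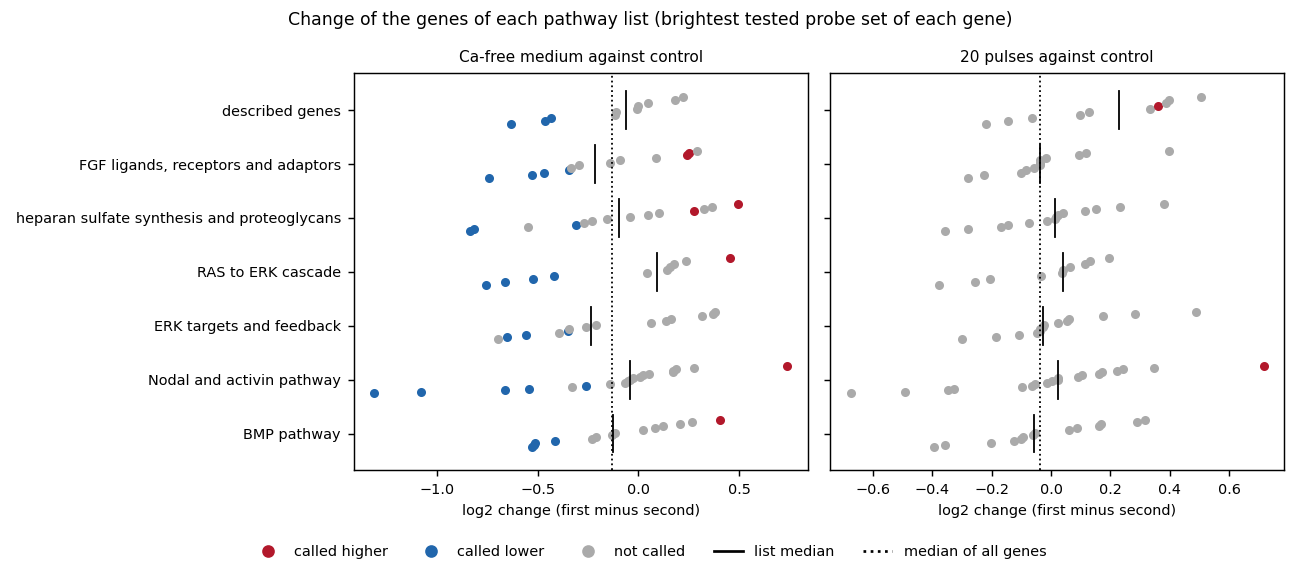
Log2 change of the described genes and of the tested genes of 6 pathway lists (horizontal axis) in the comparisons of Ca-free medium and of 20 pulses with control. Each point is a gene, from its tested probe set of highest mean signal, and colour sets calls (adjusted p under 0.05) apart. The longer marks give each list's median and the dotted line the median of all 13599 genes. In Ca-free medium against control the outermost points belong to Inhba at -1.31 and Acvr1c at -1.08, fitted at Ca-free signals partly at or below the bacterial controls. After 20 pulses the called point of the 6 lists is Skil at 0.72.

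Patterns most like those of the ligands over the 12 arrays were sought by the root mean square difference between log2 profiles, each centred on its own mean. For Fgf4 1420085_at, whose own profile varied by 0.19 around its mean, the nearest were Pawr at 0.065, Hmgn5 at 0.079 and Mcur1 at 0.082. For Nodal 1422058_at, which varied by 0.25, they were Baalc at 0.10, Mrpl20 at 0.11 and Tmem161a at 0.11. The arrays share their group and pair differences, and a small distance is a description of these 12 arrays.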

How the data were processed

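Per the labels' protocols, RNA was extracted with a PicoPure kit and labelled as biotinylated cRNA. The deposited values are linear intensity made by the authors with MAS5, per the submitters' processing notes (version not given in the sources used here). Every array had been scaled to a trimmed mean of 150, and there were 0 missing values. The 45037 probe sets beside 64 array controls carry a single gene in 34958 cases, by the platform's annotation. Symbols were updated through a RefSeq table (GRCm38.p6, 34754 matched).

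Signals were rescaled to a 2% trimmed mean of 500 (a factor of 3.33), 32 was added and log2 taken. Probe sets with a mean of at least 100 were tested with limma 3.58.1 in R 4.3.3 (lmFit, contrasts.fit, eBayes with trend, all 12 arrays in 1 model), and Benjamini-Hochberg adjusted p under 0.05 was a call. No detection calls were used. Precision is limited by the number of arrays. The procedure was tested on simulated data with independent noise in each probe set. Those data held no shift of whole arrays and no array pairs, so that test does not bear on either.

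The members, lists and tests were chosen with earlier results of these data known. Named are all members and, from each pathway list, up to 3 genes with the smallest p in each direction of each comparison with control, plus 5 lineage markers. Outside this rule, further primitive endoderm genes were named after their values were seen. Genes named from the oviduct, cumulus, fibroblast and blood lists were chosen among those called lower in Ca-free medium. Replicate numbers are shared between groups, and whether same-numbered arrays were paired is not stated. Their correlations were small (r between -0.058 and 0.101, mean 0.0156), although 7 of 12 arrays correlated best with 1 of their own number. The model had no block. With a block in limma, calls for 20 pulses against control went from 411 to 227. The call of Spry2 1421656_at in Ca-free medium was then lost (adjusted p = 0.0606). Alternatives tried were 3 other scalings, added values of 1 and 100, no filter, a minimum of 300, no trend, array weights, only the 8 arrays compared, a replicate block, a stricter threshold, pairs of controls or of Ca-free arrays, each array left out, and the mean over a gene's probe sets.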

Additional observations from a re-analysis of the deposited data

Results flagged for a closer look

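Within the groups of 4 arrays, the array farthest from its neighbour was set against the range of the group for each of the 22 probe sets in each of 3 groups, 66 groups in all, and 2 stood apart. Such a gap arises by chance in about 1 in 20 groups, and 2 of 66 is below that rate. The untested Fgfr1 probe set 1425911_a_at read 127 on Ca-free array 3, while the other 3 Ca-free arrays read between 80.5 and 84.9, and the gap was 0.905 of the range. The Fgfr2 probe set 1420847_a_at read 335 on control 3, against 308 to 312 on the other 3 controls, a gap of 0.846 of the range. Its decrease in Ca-free medium was not called without control 3, nor without control 1 or 2 or Ca-free array 3 or 4.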

How the results depend on the processing

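Over the alternatives, 948 values of member probe sets kept their direction and their side of the threshold, 89 kept their direction and lost a call, 26 kept it and gained one, and 69 changed sign, whether or not the call changed too. The 3 other scalings by construction move all probe sets of an array together, or by signal in quantile normalization, and fewer arrays, fewer probe sets tested or a stricter threshold change counts by construction. The cause of the other shifts was not tested. In what follows, members are member probe sets and the values in brackets are log2 changes. With quantile normalization, the counts called were 5497 in all and 2 members lower for Ca-free medium against control, 2789 in all and 4 members lower for Ca-free medium against 20 pulses. The sign turned for Fgfr1 1436551_at (0.0043), Fgfr2 1443211_at (0.27), Lefty1 (0.20) and Bmp4 (0.053) for Ca-free medium against control, Nodal (0.073) and Lefty1 (0.23) for Ca-free medium against 20 pulses. With median scaling, the counts called were 6 members higher and 0 members lower for Ca-free medium against control, 1 member higher and 0 members lower for Ca-free medium against 20 pulses. Here the sign turned for Fgfr1 1424050_s_at (0.39), Fgfr1 1436551_at (0.074), Fgfr2 1420847_a_at (0.040), Fgfr2 1443211_at (0.27), Tdgf1 (0.41), Lefty1 (0.25), Bmp4 (0.27), Extl3 (0.082) and Spry1 (0.044) for Ca-free medium against control, Fgf4 1420085_at (0.13), Fgfr2 1433489_s_at (0.046), Fgfr2 1420847_a_at (0.055), Nodal (0.12), Tdgf1 (0.038) and Lefty1 (0.28) for Ca-free medium against 20 pulses. With hybridization control scaling, the counts called were 1 member higher for Ca-free medium against control, 2156 in all and 6 members higher for 20 pulses against control, 19803 in all and 14 members lower for Ca-free medium against 20 pulses. Changes of opposite sign were found for Fgf4 1420085_at (-0.0080) and Spry4 1445669_at (-0.13) for Ca-free medium against control, Fgf4 1450282_at (0.11), Fgfr2 1433489_s_at (0.014), Fgfr2 1420847_a_at (0.10) and Lefty1 (0.080) for 20 pulses against control, Fgf4 1420086_x_at (-0.33), Spry2 1436584_at (-0.27) and Spry2 1421656_at (-0.17) for Ca-free medium against 20 pulses. With no filter, the counts called were 1 member higher for Ca-free medium against control. With a minimum signal of 300, the counts called were 5658 in all, 1 member higher and 3 members lower for Ca-free medium against control, 3 members higher for 20 pulses against control, 5080 in all for Ca-free medium against 20 pulses. Without the intensity trend, the counts called were 1 member higher for Ca-free medium against control, 155 in all for 20 pulses against control. With array weights, the counts called were 717 in all and 3 members higher for 20 pulses against control. The sign was turned for Tdgf1 (0.012) for Ca-free medium against control. With replicate number as a block, the counts called were 1 member higher for Ca-free medium against control, 227 in all for 20 pulses against control. With only the 8 arrays compared, the counts called were 1 member higher for Ca-free medium against control. At adjusted p under 0.01, the counts called were 5886 in all, 1 member higher and 3 members lower for Ca-free medium against control, 63 in all and 0 members higher for 20 pulses against control, 3727 in all for Ca-free medium against 20 pulses. With controls 1 and 2 only, the counts called were 1 member higher for Ca-free medium against control, 201 in all for 20 pulses against control. The sign turned for Fgfr1 1424050_s_at (0.080), Fgfr2 1443211_at (0.15), Tdgf1 (0.18) and Lefty1 (0.0050) for Ca-free medium against control, Spry2 1436584_at (-0.045), Dusp6 (-0.028) and Lefty1 (0.054) for 20 pulses against control. With controls 3 and 4 only, the counts called were 6520 in all and 2 members lower for Ca-free medium against control, 786 in all and 0 members higher for 20 pulses against control. Here the sign turned for Spry4 1445669_at (-0.40) for Ca-free medium against control. With Ca-free arrays 1 and 4 only, the counts called were 1 member higher and 2 members lower for Ca-free medium against control. Changes of opposite sign were found for Fgfr2 1443211_at (0.043), Tdgf1 (0.076), Lefty1 (0.29) and Bmp4 (0.20) for Ca-free medium against control, Fgf4 1420086_x_at (-0.13), Spry2 1436584_at (-0.061) and Lefty1 (0.35) for Ca-free medium against 20 pulses. With Ca-free arrays 2 and 3 only, the counts called were 5890 in all for Ca-free medium against 20 pulses. The sign was turned for Spry2 1421656_at (-0.13) for Ca-free medium against 20 pulses. With probe sets averaged within each gene, the counts called were 1 member gene higher and 3 member genes lower for Ca-free medium against control. Leaving out each array in turn gave 1 to 3 members higher and 3 to 6 lower for Ca-free medium against control, with the 3 without Ca-free array 3, and 110 to 379 calls in all and 0 to 1 member higher for 20 pulses against control. In those fits for Ca-free medium against control, changes lay between -0.044 and 0.031 for Fgfr1 1424050_s_at, -0.086 and 0.052 for Fgfr2 1443211_at, -0.22 and 0.27 for Spry4 1445669_at, -0.068 and 0.061 for Tdgf1, and -0.31 and 0.12 for Lefty1. Against 20 pulses they lay between -0.10 and 0.14 for Fgf4 1420086_x_at, -0.046 and 0.38 for Spry2 1421656_at, and -0.24 and 0.18 for Lefty1. For 20 pulses against control they lay between -0.11 and 0.029 for Fgfr2 1420847_a_at and -0.14 and 0.056 for Lefty1. Replicate numbers are shared between groups without a stated pairing: for 7 of the 12 arrays the best correlation was with one that bears the same number, and the block moved no other count given here by over 1.5 times. Depth in the sense of counts does not exist for arrays, and probe sets with signals near the bacterial controls (among them those of Spry4, Fgfr2 1443211_at, Spry2 1421656_at, Fgf4 1450282_at and Lefty1, each with at least 1 array at or below its own highest one) cannot show small differences.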
